A study of Oryza sativa with 6 samples.

Results

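The miR172, miR529 and miR535 families were followed in small RNA of germinating rice seeds kept at high or at ordinary temperature. They were taken as every name of the deposited table that carries 1 of these family numbers directly after "mir", which gave 39 of the 641 names: 25 of miR172, 7 of miR529 and 7 of miR535. The hot group was seeds of the cultivar Kasalath at 35 °C (3 libraries) and the normal group was seeds of the same cultivar at 25 °C (3 libraries), both labelled as 5 days after germination. Kasalath is an aus-type rice; the labels name no transgene and no treatment other than temperature, and the design text describes the triplicates as biological. The labels give 4 dishes of 5 seeds at each temperature, but neither the dishes behind each library nor any batch, so p-values measure the spread between these libraries. The table lists miRNA names only, so the labelled tissue could not be checked against marker genes. In whole seedlings a change of level per cell and a change in the mix of tissues cannot be told apart.

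These families belong to the switch from juvenile to adult growth. In young plants miR156 is abundant and holds down transcripts of SPL transcription factors, which drive adult traits and flowering. Members of the miR529 and miR535 families resemble miR156 in sequence and also act on SPL transcripts. In grasses miR529 is known for its part in panicle branching. The miR172 family acts later and in the opposite sense: it represses AP2-like transcription factors that delay flowering, and it is known to accumulate as plants age. No sequences were available for the names, so members are identified as the table gives them, with 3p or 5p for the arm of the hairpin where the name states it.

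None of the 3 families changed with temperature past the threshold, an adjusted p under 0.05. The miR529 arms were present in all 6 libraries, and their groups overlapped. The miR535 5p rows were present in all 6 but lowest in the first hot library. The miR172 names were near or at 0 in 3 of the 6 libraries, from both temperatures.

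Many rows of the table hold the same reads entered under several names, so names whose counts were identical or whole multiples of each other in all 6 libraries were joined into read sets within a family. The 39 names formed 27 read sets, 18 of miR172, 5 of miR529 and 4 of miR535, and each set was represented by its smallest row. Of the 641 names, 413 read sets remained. The read sets summed to 136627, 264023 and 300381 counts in hot libraries 1 to 3 and to 119663, 110090 and 164264 in normal libraries 1 to 3. The authors' normalised columns imply another depth, a library total of 157488, 240428 and 243859 in the hot libraries and 264112, 250255 and 275549 in the normal libraries. The headers do not state what those totals count. Because the 2 measures of depth differ between the temperatures, results below are given on both.

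Of the 27 read sets, 4 had enough counts to be tested, and none was called higher or lower at 35 °C by edgeR's quasi-likelihood test (Benjamini-Hochberg adjusted p under 0.05 over all 166 tested read sets). None had an unadjusted p under 0.05 either, and DESeq2's Wald test and limma-voom also called 0 of the 4. Over all tested read sets 34.9% were called under TMM scaling, 31 higher and 27 lower. Of these calls 19 higher and 1 lower were miR156 sets, many of them near-multiples of each other. Without the miR156 names 12 of 146 sets were called higher and 7 lower. With rows within 10% of a whole multiple also joined, 12 of 91 were called higher and 10 lower. With the deposited library totals 28.3% of all tested read sets were called, 46 higher and 1 lower. With those totals 1 of the 4 members, mir529-3p, had an unadjusted p under 0.05. The other 23 read sets, all 18 of miR172 included, stayed below the filter on low counts and are described by their counts alone.

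The miR529 family was led by its 3p arm. The row mir529-3p held 632 and mir529-5p 250 of the 918 counts of the family, so the family sum mostly follows the 3p arm. Which arm acts on SPL transcripts was not examined here. The row mir529-3p had 60, 144 and 194 counts in hot libraries 1 to 3 and 72, 56 and 106 in normal libraries 1 to 3. The row mir529-5p had 16, 46 and 78 counts in the hot libraries and 34, 38 and 38 in the normal libraries. All 12 of these counts are even, so both rows may hold each read 2 times; the sources used here do not say.

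Relative to the TMM-scaled sum of read sets, mir529-3p had 532.6, 593.2 and 641.0 CPM (counts scaled to a common library size) in the hot libraries and 559.0, 456.5 and 591.1 CPM in the normal libraries. The groups overlapped, with hot library 1 below normal libraries 1 and 3. The mean was 588.9 ± 54.4 CPM in hot and 535.5 ± 70.3 CPM in normal libraries (SD, n = 3 each). The log2 fold change of mir529-3p was 0.14 (SE 0.17, 95% interval -0.27 to 0.54, edgeR adjusted p = 0.536). For mir529-5p the mean was 196.4 ± 58.2 CPM in hot and 261.9 ± 49.0 CPM in normal libraries (SD, n = 3 each). Its log2 fold change was -0.39 (SE 0.30, 95% interval -1.11 to 0.33, edgeR adjusted p = 0.342). The values moved with single libraries: mir529-3p had 0.48 without normal library 1, 0.047 without normal library 2 and 0.26 without normal library 3, and mir529-5p had -0.046 without normal library 1, -0.61 without hot library 3, -0.26 without normal library 2 and -0.23 without hot library 1, none called.

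**Figure D1:**
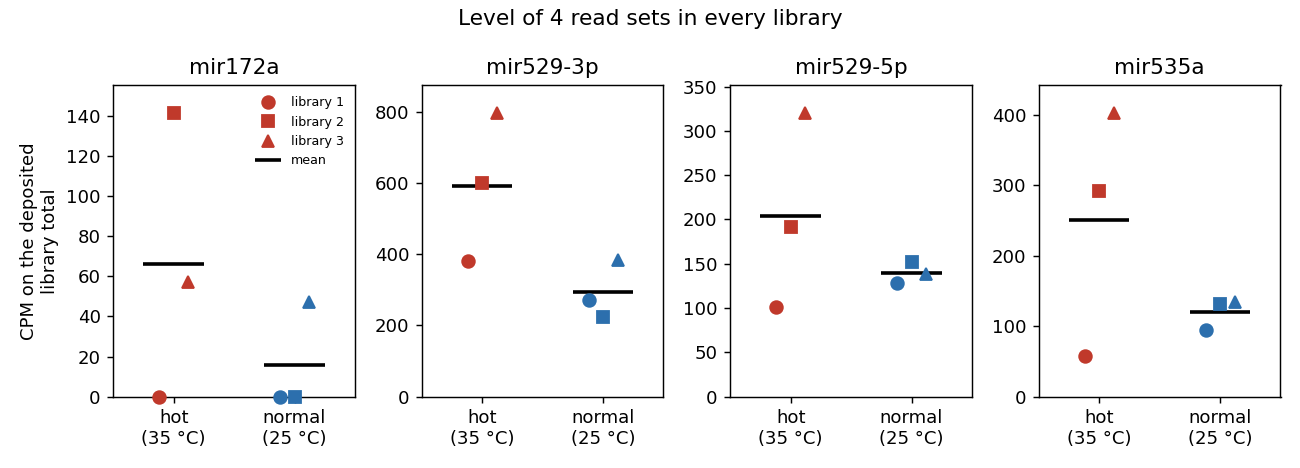
CPM on the deposited library total (y axis, linear, from 0) for mir172a, mir529-3p, mir529-5p and mir535a in the 3 hot libraries (red, left) and the 3 normal libraries (blue, right); marker shape gives the library number and the black line the group mean. In each panel at least 1 hot library lies at or below the highest normal library, and for mir172a 1 hot and 2 normal libraries are at 0.

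With the deposited library totals in place of TMM, mir529-3p had 381.0, 598.9 and 795.5 CPM in the hot libraries and 272.6, 223.8 and 384.7 in the normal libraries. The lowest hot library lay just under the highest normal library. On that scale the log2 fold change was 1.01 (SE 0.39, 95% interval 0.16 to 1.87, edgeR adjusted p = 0.0697), while the median over all 166 read sets was 0.68. Under TMM that median was -0.15. Set against the median, mir529-3p was higher by 0.29 under TMM and by 0.33 with the totals. The mir529-5p value was 0.56 with the totals (edgeR adjusted p = 0.328), so its direction turned with the scaling. Relative to the median it was -0.24 under TMM and -0.12 with the totals.

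The balance of the miR529 arms does not depend on library scaling. With each row divided by 2, the 3p arm made up 78.9%, 75.8% and 71.3% of the 3p and 5p reads in hot libraries 1 to 3 and 67.9%, 59.6% and 73.6% in normal libraries 1 to 3. The mean share was 75.4 ± 3.8% in hot and 67.0 ± 7.1% in normal libraries (SD, n = 3 each). Normal library 3 lay above hot library 3, so the groups overlapped. The exact Clopper-Pearson 95% interval ran from 62.7% to 90.4% in hot library 1 and from 44.3% to 73.6% in normal library 2, the libraries with the highest and the lowest share. These intervals are computed within each library and cover counting error only. The reads carry no stated molecular identifiers, so the intervals are too narrow wherever a molecule was counted more than once.

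**Figure D2:**
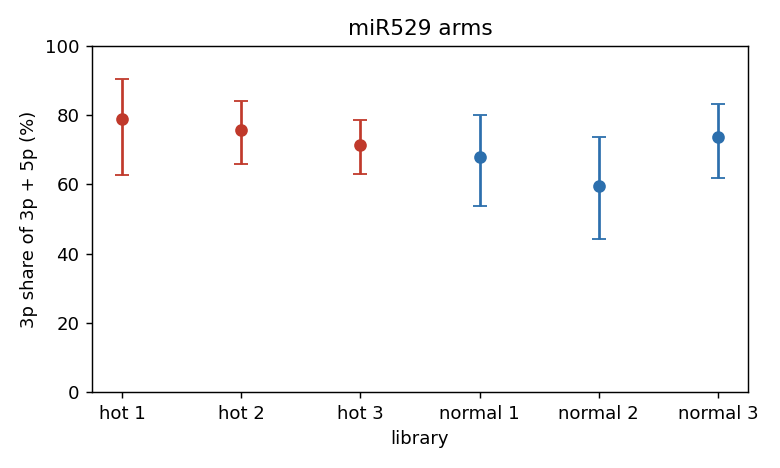
Share of the 3p arm among miR529 3p and 5p reads (y axis, percent, from 0 to 100) in each library, hot libraries in red and normal libraries in blue, with exact 95% intervals for counting error. The shares run from 71.3% to 78.9% in the hot libraries and from 59.6% to 73.6% in the normal libraries, and all intervals overlap.

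The miR529 names without an arm were rare. The identical rows mir529e and mir529f had 1, 4 and 7 counts in the hot libraries and 7, 1 and 5 in the normal libraries. The row mir529b had 1, 4 and 1 counts in the hot libraries and 3, 0 and 1 in the normal libraries. In both sets the highest and lowest libraries of the 2 temperatures interleaved. The rows mir529 and mir529a held a single count, in normal library 2, and 0 in the other 5 libraries.

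The miR535 family, with members that act on SPL transcripts, rested on few reads. Its smallest 5p row, mir535-5p, had 2, 17 and 24 counts in the hot libraries and 6, 8 and 9 in the normal libraries. The row mir535d is identical to it, mir535c is 2 times it and mir535 is 4 times it in all 6 libraries. The rows mir535a and mir535b follow the same reads without being exact multiples. The row mir535a had 9, 70 and 98 counts in the hot libraries and 25, 33 and 37 in the normal libraries, which is 4 times mir535-5p plus 1, 2 and 2 in hot and 1, 1 and 1 in normal libraries. The row mir535b had 5, 36 and 50 counts in the hot libraries and 13, 17 and 19 in the normal libraries, which is 2 times mir535-5p plus the same remainder. The 2 tested miR535 rows are therefore not separate measurements, and they passed the filter on multiplied counts that the smallest row does not reach.

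The hot libraries spanned the normal ones in miR535. Under TMM, mir535a had 79.9, 288.4 and 323.8 CPM in the hot libraries and 194.1, 269.0 and 206.3 CPM in the normal libraries. Hot library 1 was the lowest of the 6, while hot libraries 2 and 3 were the highest. The mean was 230.7 ± 131.8 CPM in hot and 223.2 ± 40.2 CPM in normal libraries (SD, n = 3 each). Its log2 fold change was 0.08 (SE 0.50, 95% interval -1.12 to 1.29, edgeR adjusted p = 0.889). The mir535b value was 0.11 (SE 0.48, edgeR adjusted p = 0.875). Without hot library 1 the 2 values were 0.45 and 0.44, and without hot library 3 they were -0.22 and -0.17, in no case called. With the deposited totals mir535a had 1.07 (SE 0.60, 95% interval -0.25 to 2.38, edgeR adjusted p = 0.165), against the all-set median of 0.68 on that scale.

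For the untested smallest row, mir535-5p, 43 counts over the hot libraries stood against 23 over the normal libraries. After TMM scaling that is a ratio of 1.22, with an exact 95% interval of 0.72 to 2.13. With the deposited totals the ratio was 2.30 (interval 1.36 to 4.00). Both intervals are for counts pooled by temperature and do not hold the spread between libraries, in which hot library 1, with 2 counts, was below every normal library. The other arm, mir535-3p, had 3, 1 and 1 counts in the hot libraries and 0, 1 and 4 in the normal libraries. It amounted to 5 counts at each temperature.

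**Figure D3:**
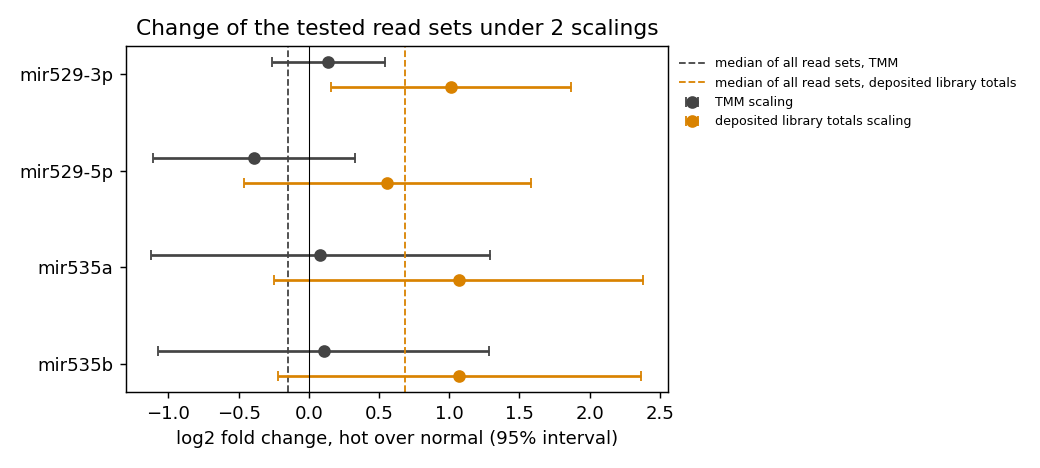
Log2 fold change of hot over normal (x axis) with its 95% interval for the 4 tested read sets, under TMM scaling (grey) and with the deposited library totals (orange); dashed lines mark the median over all 166 tested read sets under each scaling. Values under TMM run from -0.39 to 0.14 and with the totals from 0.56 to 1.07, and each moves together with the median of all read sets.

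The miR172 family, which represses AP2-like transcription factors, was scarce and unevenly present. Its 25 names, 9 of them 3p and 16 with no arm, were all at 0 in normal library 2. Of the 25, 21 had counts only in hot library 2, hot library 3 and normal library 3, or in a subset of these. Hot library 2 held the highest count, or a tied highest count, of all 25 names. These are raw counts from libraries that differ in depth, and the 25 names form only 18 read sets. The share of names with these patterns over the whole table was not computed.

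The most abundant row, mir172a, had 0, 34 and 14 counts in hot libraries 1 to 3 and 0, 0 and 13 in normal libraries 1 to 3. The row mir172b had 0, 28 and 15 counts in the hot libraries and 0, 0 and 10 in the normal libraries. Both rows were at 0 in 1 hot and 2 normal libraries, and in both hot library 3 was nearer to normal library 3 than to hot library 2. Among the 3p names, mir172b-3p had 0, 13 and 6 counts in hot and 0, 0 and 6 in normal libraries. The row mir172a-3p had 0, 9 and 4 counts in hot and 0, 0 and 4 in normal libraries. These 2 rows were above 0 in the same 3 libraries as mir172a and mir172b.

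The row mir172, with no letter, had 0, 11 and 5 counts in the hot libraries and 0, 0 and 5 in the normal libraries. The row mir172h had 0, 6 and 3 counts in hot and 0, 0 and 3 in normal libraries, all whole multiples of 3. The row mir172g had 0, 5 and 3 counts in hot and 0, 0 and 2 in normal libraries. For 8 of the 25 names, mir172, mir172h, mir172a-3p and mir172b-3p among them, the count in hot library 3 equalled that in normal library 3. In the rest, mir172c-3p, mir172d-3p and the identical rows mir172e-3p and mir172h-3p, both counts were 1. These 2 libraries differ in depth, so equal counts are not equal levels. Shared steps of this kind between rows do not show how many distinct reads stand behind them, and the rows are not independent measurements.

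A second group of miR172 rows had counts in 5 libraries. The row mir172c had 1, 23 and 11 counts in the hot libraries and 1, 0 and 5 in the normal libraries. The row mir172d had 1, 20 and 10 counts in hot and 1, 0 and 5 in normal libraries. These 2 rows differ by at most 3 counts in any library. The row mir172e had 2, 19 and 12 counts in hot and 2, 0 and 3 in normal libraries. The row mir172f had 1, 13 and 7 counts in hot and 1, 0 and 4 in normal libraries. In all 4 rows the count in hot library 1 equalled that in normal library 1, and hot libraries 2 and 3 were the highest of the 6. The remaining 7 miR172 read sets had at most 6 counts in a library. Among the 25 names, 9 had no count at 25 °C, and each of these held at most 2 counts in any hot library. They belong to the read sets of mir172f-3p (5 names), mir172i-3p (2 names) and mir172k (2 names), so they are not separate measurements. The share of such names over the whole table was not computed.

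**Figure D4:**
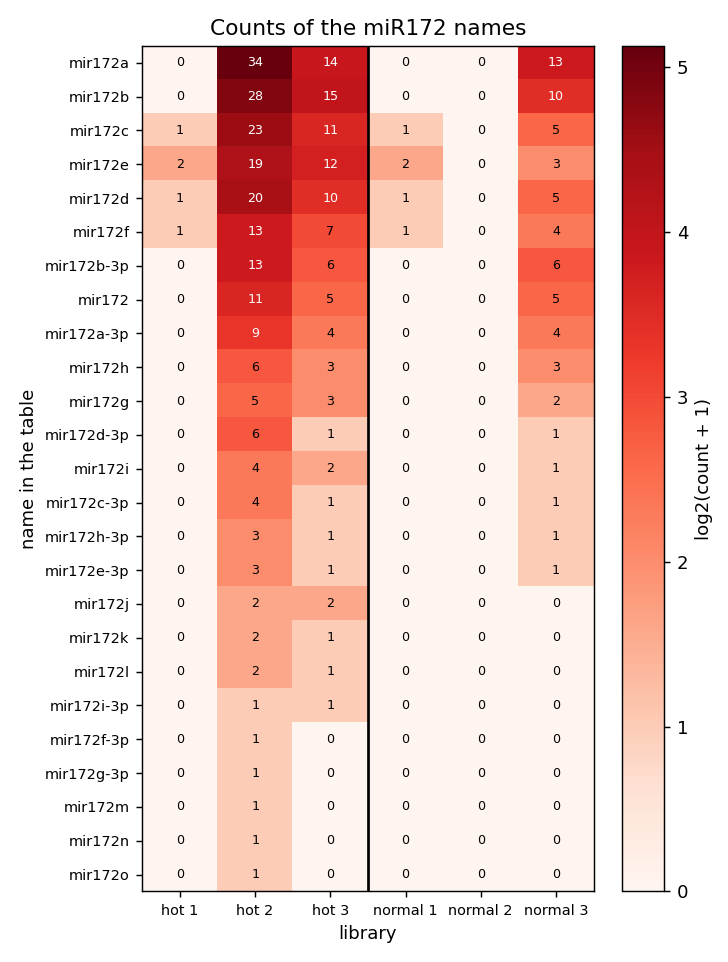
Deposited counts of the 25 miR172 names (rows, most abundant at the top) in the 6 libraries (columns, hot left of the line and normal right of it); the number in each cell is the count and the colour its log2(count + 1). Counts gather in hot libraries 2 and 3 and normal library 3, normal library 2 is 0 throughout, and hot library 1 and normal library 1 hold 1 or 2 counts of 4 names.

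The 3 libraries with more miR172, hot libraries 2 and 3 and normal library 3, were also the 3 with the highest sums of read sets, 264023, 300381 and 164264 counts, against 136627, 119663 and 110090 in hot library 1, normal library 1 and normal library 2. The deposited totals did not split the libraries that way. The part of depth in the miR172 counts was not tested. Normal library 1, with a total of 264112, had 0 counts of mir172a, which allows up to 11.4 CPM on that total. Normal library 3, with a total of 275549, had 47.2 CPM. Normal library 2 allows up to 11.99 CPM and hot library 1, the shallowest by deposited total but not by sum of read sets, up to 19.0. Each limit was taken as 3 counts of the deposited total of its library, and none was computed on the TMM scale. Hot libraries 2 and 3 had 141.4 and 57.4 CPM. By these counts mir172a in hot library 1 was below its level in normal library 3. The order of hot library 3 and normal library 3 depends on the scale. Their TMM-scaled library sizes were 302641 and 179313, for 14 and 13 counts of mir172a. On that scale normal library 3 lies above hot library 3. The limits take each count as a separate read, so they are too narrow wherever a read was entered several times.

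Summed over its read sets, miR172 came to 5, 202 and 97 counts in the hot libraries and 5, 0 and 64 in the normal libraries. In the fit of family sums its log2 fold change was 1.86 (SE 1.48, 95% interval -1.73 to 5.44, edgeR adjusted p = 0.376), with a median of 0.44 over the 31 tested families. The value moved with single libraries: it was 0.71 without hot library 2, 1.30 without normal library 2 and 4.57 without normal library 3, none called. The lowest adjusted p among those was 0.0898, without normal library 3. The miR529 sum had 0.19 (SE 0.31, 95% interval -0.55 to 0.94, edgeR adjusted p = 0.684) and the miR535 sum 0.33 (SE 0.53, 95% interval -0.95 to 1.62, edgeR adjusted p = 0.684). None of the 3 was called, nor had an unadjusted p under 0.05, where 29% of the tested families were called, and DESeq2's Wald test and limma-voom also called 0 of them. With the deposited totals the values were 2.33 for miR172, 0.85 for miR529 and 1.05 for miR535, none called, at an all-family median of 1.04. The miR535 sum enters the mir535-5p reads several times, through mir535a and mir535b, so its SE rests on copied counts. The miR172 sum adds rows with shared steps, so its counts and SE may rest on copies as well.

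Of the sums by family and arm, 4 had enough counts to be tested, none called by edgeR, DESeq2's Wald test or limma-voom and none with an unadjusted p under 0.05, where 20% of 50 sums were called. Their log2 fold changes were 1.95 for the miR172 names without an arm (SE 1.36, edgeR adjusted p = 0.354), 0.48 for miR529 3p, -0.02 for miR529 5p and 0.47 for the miR535 names without an arm. Each of these fits has its own TMM factors, so values for the same row differ between them. The median over all sums here was 0.15. The miR535 sum without an arm joins mir535a and mir535b, which repeat the mir535-5p reads. It is not a measurement apart from the 5p arm, and its counts and SE rest on copies. Without the filter on low counts the miR172 sum with no arm was called, at 2.32 (SE 0.59, edgeR adjusted p = 0.00267). In that fit 7.93% of 164 sums were called. The counts of the miR172 sum were the same in both fits, and what lowered its SE from 1.36 was not tested. They were 5, 165 and 83 in the hot libraries and 5, 0 and 51 in the normal libraries. The sum adds miR172 rows with shared steps, so its SE may rest on copied counts. Among the names as deposited, 6 members could be tested and edgeR called 0 of them, with 0 at an unadjusted p under 0.05, where 22.9% of 253 names were called. DESeq2's Wald test and limma-voom also called 0 of the 6.

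The other phase change families fixed as a list were miR156 and miR157, of which the table holds 47 names and 0 names. Of 23 tested miR156 read sets, 19 were called higher and 1 lower, where 18.7% of all read sets were called higher and 16.3% lower. Many of these sets are near-multiples of each other and so not separate measurements: with rows within 10% of a whole multiple also joined, 6 were tested, 1 called higher and 1 lower. With exact multiples only, the number called higher was 0 without hot library 2, without normal library 2 or without normal library 3, and 1 with column sums alone. The miR156 sum had 95190, 191812 and 223476 counts in the hot libraries and 88280, 80511 and 118994 in the normal libraries. In miR156, 29 of 943 pairs of rows kept a fixed ratio within each temperature (tolerance 1%) that differed between temperatures by more than 20%. The same was seen in 0 of 5 pairs in miR529 and 0 of 15 in miR535. These pairs are few, and those of miR535 join copies or near copies of 1 row. They cannot show whether such shifts are absent from the 2 families. What the shifted ratios of miR156 add to its values was not tested.

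The 3 families were then set against miR156 within each library, a ratio that needs no scaling between libraries. The miR156 sum holds the near-multiples and the row ratios shifted between temperatures given above. Their part in the ratios to miR156 was not tested. Per 100000 miR156 counts, miR529 had 81.9, 103.2 and 125.3 in the hot libraries and 131.4, 119.2 and 126.1 in the normal libraries. Normal libraries 1 and 3 lay above all hot libraries, and hot library 3 above normal library 2. The log2 ratio of miR529 to miR156 was lower by a mean of 0.30 in hot libraries (hot minus normal -0.30; exact two-sided permutation p = 0.2, and 0.6 adjusted over the 3 ratios). With 3 libraries against 3 the smallest p that test can give is 0.1. The ratio was lower in 2 of 3 hot libraries than in every normal library. Without hot library 1 the difference was -0.14, and without hot library 3 it was -0.45.

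For miR535 the ratio was 19.96, 64.6 and 77.4 per 100000 in the hot libraries and 49.8, 73.3 and 58.0 in the normal libraries, a log2 difference of -0.36 (exact two-sided permutation p = 0.9, and 0.9 adjusted). Hot library 1 was again the lowest of the 6, and without it the difference was 0.25. The miR535 sum in this ratio also enters the mir535-5p reads several times. For miR172 the ratio was 5.25, 105.3 and 43.4 in the hot libraries and 5.66, 0 and 53.8 in the normal libraries. The miR172 sum in this ratio adds rows with shared steps, so it may hold copied counts. The log2 difference of miR172, computed without normal library 2 because of its 0, was 0.73 (exact two-sided permutation p = 0.8 over 3 against 2 libraries, and 0.9 adjusted). With 0.5 counts added to both sums, which keeps normal library 2, it was 2.33. Leaving out normal library 1 as well gave -0.90 against a single normal library, leaving out normal library 3 as well gave 2.35, also against 1, and without hot library 1 or hot library 2 it was 1.95 or -0.21. Without hot library 3 it was 0.43. The 2 temperatures overlapped in all 3 ratios.

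**Figure D5:**
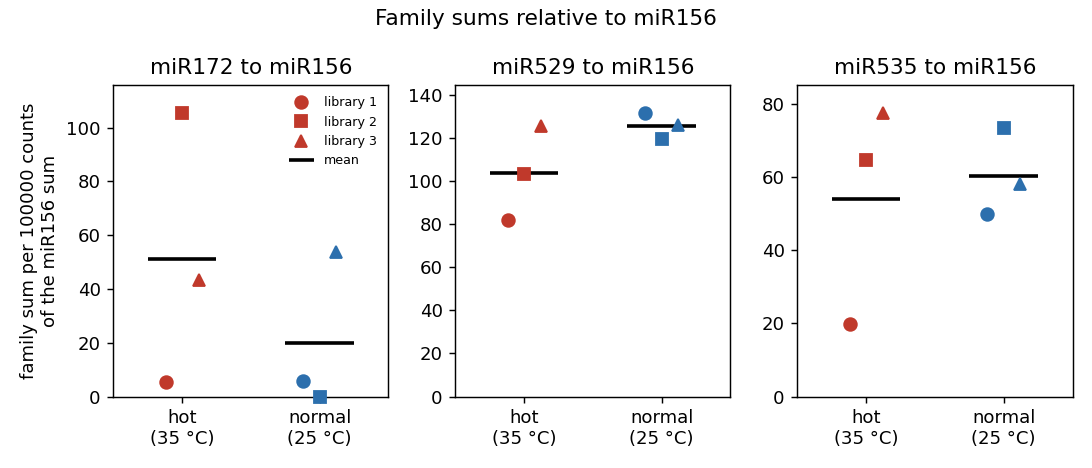
Family sum per 100000 counts of the miR156 sum in the same library (y axis, linear, from 0) for miR172, miR529 and miR535, hot libraries in red on the left and normal libraries in blue on the right; marker shape gives the library number and the black line the group mean. The miR529 ratios run from 81.9 to 125.3 in hot and from 119.2 to 131.4 in normal libraries, and hot library 1 is the lowest in the miR529 and miR535 panels.

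By Pearson correlation of log2 CPM over the 6 libraries, the read sets of other families closest to mir529-3p were mir396c-3p (r = 0.89), mir390 (r = 0.82) and mir444a (r = 0.78). Closest to mir535a were mir160f-5p (r = 0.91), mir160c (r = 0.85) and mir160e-5p (r = 0.79). Closest to mir172a were mir160e-5p (r = 0.76), mir444b and mir444a (r = 0.74 each). These are descriptions over 6 points that share library preparation and scaling, picked as the highest of 162 read sets, and several of the rows have few counts.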

How the data were processed

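Small RNA libraries were prepared by mirVana isolation, the NEBNext small RNA kit and selection of sizes on beads (per the labels' protocols); the sequencer was a MiSeq. The authors deposited 1 table with raw counts per miRNA name and a normalised expression score per library, per the file headers; within a library the score is proportional to the count, and the library total behind it was taken from rows with a count above 20. No other use was made of the score. The matching tool, miRNA release and genome build: not given in the sources used here. Columns were mapped through the library codes in the labels' sample descriptions.

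The counts were fitted as read sets, as sums by family, as sums by family and arm, and as names, always over the whole table. Where any name of a set states an arm, the set takes that arm. Each fit used edgeR 4.0.16 in R 4.3.3 (filterByExpr with its minimum of 10 counts, TMM, quasi-likelihood F test, temperature group as sole term, 6 libraries, adjusted p under 0.05). The standard error is the log2 fold change over the square root of F. Alternatives used DESeq2 1.42.0, limma 3.58.1 (voom), other scalings, no filter, a replicate block, leaving out miR156 and leaving out each library. Dividing each set by the greatest common divisor of its counts was added after seeing the data. Members and lists were chosen with earlier results of these data known. The scripts were tested on simulated counts. Read sets with at least 10 counts in all are given library by library, others by range.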

Additional observations from a re-analysis of the deposited data

How the results depend on the processing

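Across all alternatives run, no member was called, except in the sums by family and arm without a filter, where 1 was (the miR172 names without an arm, 2.32). With column sums alone the values turned negative for mir529-3p (-0.10), mir535a (-0.13), mir535b (-0.11), the miR529 3p sum (-0.10), the miR535 sum without an arm (-0.14), the miR529 family (-0.29) and the miR535 family (-0.15). With the deposited library totals mir529-5p turned positive (0.56, and 0.56 as a sum by arm). The miR529 5p sum, at -0.02, was also positive without a filter (0.21) and with identical rows added once (0.011). Leaving out 1 library gave ranges of 0.047 to 0.48 for mir529-3p, -0.61 to -0.046 for mir529-5p, -0.22 to 0.45 for mir535a, -0.17 to 0.44 for mir535b, -0.39 to 0.21 for the miR529 5p sum, -0.90 to 2.35 for the miR172 to miR156 ratio, -0.45 to -0.14 for the miR529 to miR156 ratio and -0.73 to 0.25 for the miR535 to miR156 ratio, all log2. The miR172 to miR156 ratio was -0.15 with only the most abundant read set of each family and 2.33 with 0.5 counts added. The cause of these turns was not tested.

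Over all tested read sets the count of calls, 31 higher and 27 lower, became 34 and 15 with DESeq2 size factors, 13 and 50 with column sums alone, 12 and 10 with near-multiples joined and 12 and 8 without hot library 2.

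The labels do not say whether same-numbered libraries share more than a number. The correlation of their deviations was 0.42, -0.15 and 0.01 for numbers 1 to 3, and hot library 2 correlated best with normal library 3 (0.48). With 3 libraries at each temperature these values cannot decide whether the libraries are paired. With the replicate block no member was called, mir535a had -0.086 and mir535b -0.032, and the miR172 to miR156 ratio over the 2 usable pairs was -0.21. Over all read sets the block gave 35 higher and 18 lower.

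None of the 18 miR172 read sets had enough counts for a test in the main fit. Without a filter all 27 member sets were tested and 0 were called. Leaving out hot library 1, normal library 1 or normal library 2 brought the member sets tested from 4 to 6, with 0 called.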
